A study of Macaca mulatta with 449 samples.

Results

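The choroid plexus is the frond-like tissue that hangs in the lateral ventricles, the third ventricle and the fourth ventricle of the brain, and its epithelium secretes cerebrospinal fluid into them. The 6 genes described here are known markers of this epithelium: *TTR* (transthyretin, the carrier of thyroid hormone and retinol-binding protein), *FOLR1* (the folate receptor that moves folate into cerebrospinal fluid), *KL* (klotho, a membrane and secreted cofactor of fibroblast growth factor receptors), *CLIC6* (an intracellular chloride channel protein), *AQP1* (a water channel of the apical membrane) and *PRLR* (the prolactin receptor). They were chosen by symbol, and all 6 were found among the 30807 genes of the count table. The epithelium also expresses tight junction claudins, transporters for ions, sulfate and organic anions, the serotonin receptor HTR2C and the transcription factor OTX2. Several of the genes are known from other cells too: *AQP1* from sensory nerve fibres and endothelium, *KL* from neurons, and *PRLR* from the hypothalamus and the pituitary.

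RNA depleted of ribosomal RNA was sequenced from 51 dissected brain sub-regions of 8 healthy rhesus macaques, with 1 library for each animal and sub-region. The males were Rhesus 2 and 3 (both 10 years, mid-aged) and Rhesus 7 and 8 (4 and 3.8 years, young). The females were Rhesus 6 and 11 (10 and 9.8 years, mid-aged) and Rhesus 4 and 10 (3.2 and 5 years, young). No treatment is named in the labels. By the methods, a single anatomist took a small piece of each sub-region. No sub-region is labelled as choroid plexus. Libraries held between 7784678 and 31083490 reads counted on genes, with a median of 10698602. Levels are given as CPM, reads scaled to a common library size, after TMM scaling, which corrects library sizes for a few dominant genes. CPM take no account of gene length, so levels are compared between sub-regions and animals for 1 gene and not between genes. In bulk tissue, fewer cells of a type and less RNA per cell cannot be told apart.

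From general anatomy, 11 of the 51 sub-regions were taken as lying at a ventricle. These were the corpus callosum (CC, over the lateral ventricle), the caudate nucleus (CN, in its wall), the dentate gyrus (DG), CA3 and CA1 of the hippocampus and the amygdala (AMY, all 4 at the inferior horn), the thalamus (THA) and the hypothalamus (HTHA, both at the third ventricle), and the medulla oblongata (MO), the pons (PON) and the cerebellum vermis (CBV, all 3 at the fourth ventricle). The other sub-regions were 9 non-cortical ones, among them the pituitary (PIT) and the olfactory bulb (OB), and 31 of the neocortex. Non-cortical here means outside the neocortex, so these 9 include the entorhinal and perirhinal cortex and the cerebellar cortex.

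*TTR* (ENSMMUG00000016673) was highest in CC, where it lay between 167 CPM (Rhesus 4) and 2330 CPM (Rhesus 10) with a median of 599, a 13.98-fold range. The DG followed with 91.6 CPM in Rhesus 7, a median of 295 and 910 CPM in Rhesus 4, and CA3 with 29.8 CPM in Rhesus 10, a median of 76.9 and 898 CPM in Rhesus 8. A different animal was thus highest in each of these sub-regions, and Rhesus 4 had the least *TTR* in CC and the most in DG. The AMY held 14.9 to 338 CPM (median 46.1), MO 10.2 to 268 CPM (median 34.5) and THA 4.10 to 252 CPM (median 33.4). CA1, which adjoins CA3, held 19.8 to 69.9 CPM (median 36.6), a 3.53-fold range and the smallest among the 11 sub-regions. At the low end were CN (13.7 ± 13.2 CPM, mean ± SD, n = 8), PON (6.62 ± 5.23), CBV (5.02 ± 7.11) and HTHA (4.96 ± 5.09), so lying at a ventricle did not by itself go with a high level.

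Of the sub-regions not counted as ventricle-near, the ventral tegmental area (VTA, 19.7 ± 7.56 CPM), the substantia nigra (SN, 15.0 ± 6.99 CPM) and the accumbens nucleus (ACb, 11.8 ± 13.2 CPM) held the most *TTR* outside the neocortex. PIT was among the lowest of all 51, at 0.262 ± 0.127 CPM. Over the neocortex the mean per animal was 1.47 ± 2.06 CPM, and 87 neocortical libraries had at most 3 *TTR* counts. A pair of libraries of Rhesus 8, the inferior occipital gyrus (IOG, 124 CPM) and the posterior superior occipital gyrus (pSOG, 47.2 CPM), held 46.9% of the *TTR* CPM summed over all neocortical libraries. In the other 7 animals, IOG had at most 1.39 CPM. The same libraries held 1.86 CPM (IOG) and 1.63 CPM (pSOG) of *FOLR1*, against at most 0.464 and 0.822 CPM in the other animals, and 3.32 and 1.63 CPM of *CLIC6*, against at most 0.186 and 0.225 CPM. *TTR*, *FOLR1* and *CLIC6* were thus high together in these libraries.

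*FOLR1* (ENSMMUG00000010455) shared the upper part of this order. In CC it ran from 4.16 CPM (Rhesus 7) over a median of 8.94 to 40.8 CPM (Rhesus 10), in DG from 1.11 CPM (Rhesus 7) over 3.35 to 16.1 CPM (Rhesus 4), and in CA3 from 0.505 CPM (Rhesus 7) over 1.26 to 13.6 CPM (Rhesus 8). The animals that were highest for *FOLR1* in these 3 sub-regions were those that were highest for *TTR*. Further down the orders parted: the globus pallidus (GP) came next for *FOLR1* at 2.91 ± 1.65 CPM, and PIT, with almost no *TTR*, held 2.35 ± 1.13 CPM. In the neocortex the mean was 0.218 ± 0.0899 CPM, and 187 neocortical libraries had 3 counts or fewer.

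*KL* (ENSMMUG00000017048) was highest in PIT, where the 8 animals lay between 18.2 and 54.2 CPM (median 33.7). In CC it ran from 6.66 CPM (Rhesus 7) over 11.7 to 77.8 CPM (Rhesus 10), and the next highest animal had 21.8 CPM. ACb (20.1 ± 7.22 CPM), CA3 (17.7 ± 8.89 CPM) and the entorhinal and perirhinal cortex (PA, 16.1 ± 3.59 CPM) came next. The neocortex carried *KL* in every library, with a mean of 8.29 ± 1.57 CPM per animal, from 15.3 ± 6.29 CPM in the hippocampal or parahippocampal gyrus (HG) to 3.33 ± 0.795 CPM in pSOG. The lowest levels of all were in sub-regions at the fourth ventricle or in the cerebellum, 0.639 CPM in PON, 0.530 CPM in the cerebellar cortex (CBC) and 0.456 CPM in CBV.

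*CLIC6* (ENSMMUG00000004605) was highest in CC, from 5.08 CPM (Rhesus 4) over a median of 13.2 to 69.6 CPM (Rhesus 10). The next 7 sub-regions in the order were all of the neocortex, led by the posterior superior frontal gyrus (SFG, 4.57 to 41.5 CPM, median 14.6), the anterior superior frontal gyrus (ASFG, 12.6 ± 5.37 CPM), the inferior precentral gyrus (IPrCG, 12.6 ± 8.30 CPM) and the ventromedial prefrontal cortex (vmPFC, 10.9 ± 5.85 CPM). In the occipital neocortex it was near absent, at 0.333 ± 0.199 CPM in the lingual gyrus (LG) and 0.0678 ± 0.0650 CPM in the anterior superior occipital gyrus (aSOG). DG (8.63 ± 6.87 CPM) was the only ventricle-near sub-region besides CC among the 10 highest. *CLIC6* therefore had a neocortical pattern of its own that *TTR* and *FOLR1* did not share.

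*AQP1* (ENSMMUG00000011763) had its highest levels in OB (91.8 to 242 CPM, median 148) and MO (27.4 to 293 CPM, median 122). CC followed with 16.1 to 137 CPM (median 84.5), then CN with 45.8 to 106 CPM (median 65.9) and ACb with 54.4 ± 17.1 CPM. Thus CN, which held little *TTR*, was rich in *AQP1*, and in DG (13.9 ± 3.89 CPM) and AMY (4.12 ± 1.34 CPM), with much *TTR*, *AQP1* was low relative to its own maximum. The neocortical mean was 2.78 ± 0.518 CPM.

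*PRLR* (ENSMMUG00000006302) was highest in PIT, between 1.69 and 15.8 CPM (median 6.54), followed by CC (1.39 to 16.98 CPM, median 2.69) and HTHA (0.944 to 6.15 CPM, median 3.71). OB had 1.63 ± 0.898 CPM and MO 1.27 ± 0.827 CPM. In the neocortex *PRLR* lay close to the limit of the depth, with 3 or fewer counts in 194 libraries, and the putamen (PUT) had a single count over all 8 libraries.

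Neighbours at the top of the *TTR* order lay within the spread between animals. The paired difference in log2(CPM + 1) was 0.97 (SD 1.84, n = 8) between CC and DG and 1.56 (SD 1.76) between DG and CA3. Further down, CA1 exceeded VTA for *TTR* by 1.04 (SD 0.495) and HTHA exceeded OB for *PRLR* by 0.75 (SD 0.488), each in 8 of 8 animals. Both had a p of 0.0078125 in an exact two-sided sign-flip permutation test, which is the smallest that 8 animals allow. Among the 12 highest sub-regions of each gene there were 66 pairs of neighbours, and adjusted over these the p was 0.258. With 8 animals a single pair could not pass after this adjustment.

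**Figure D1:**
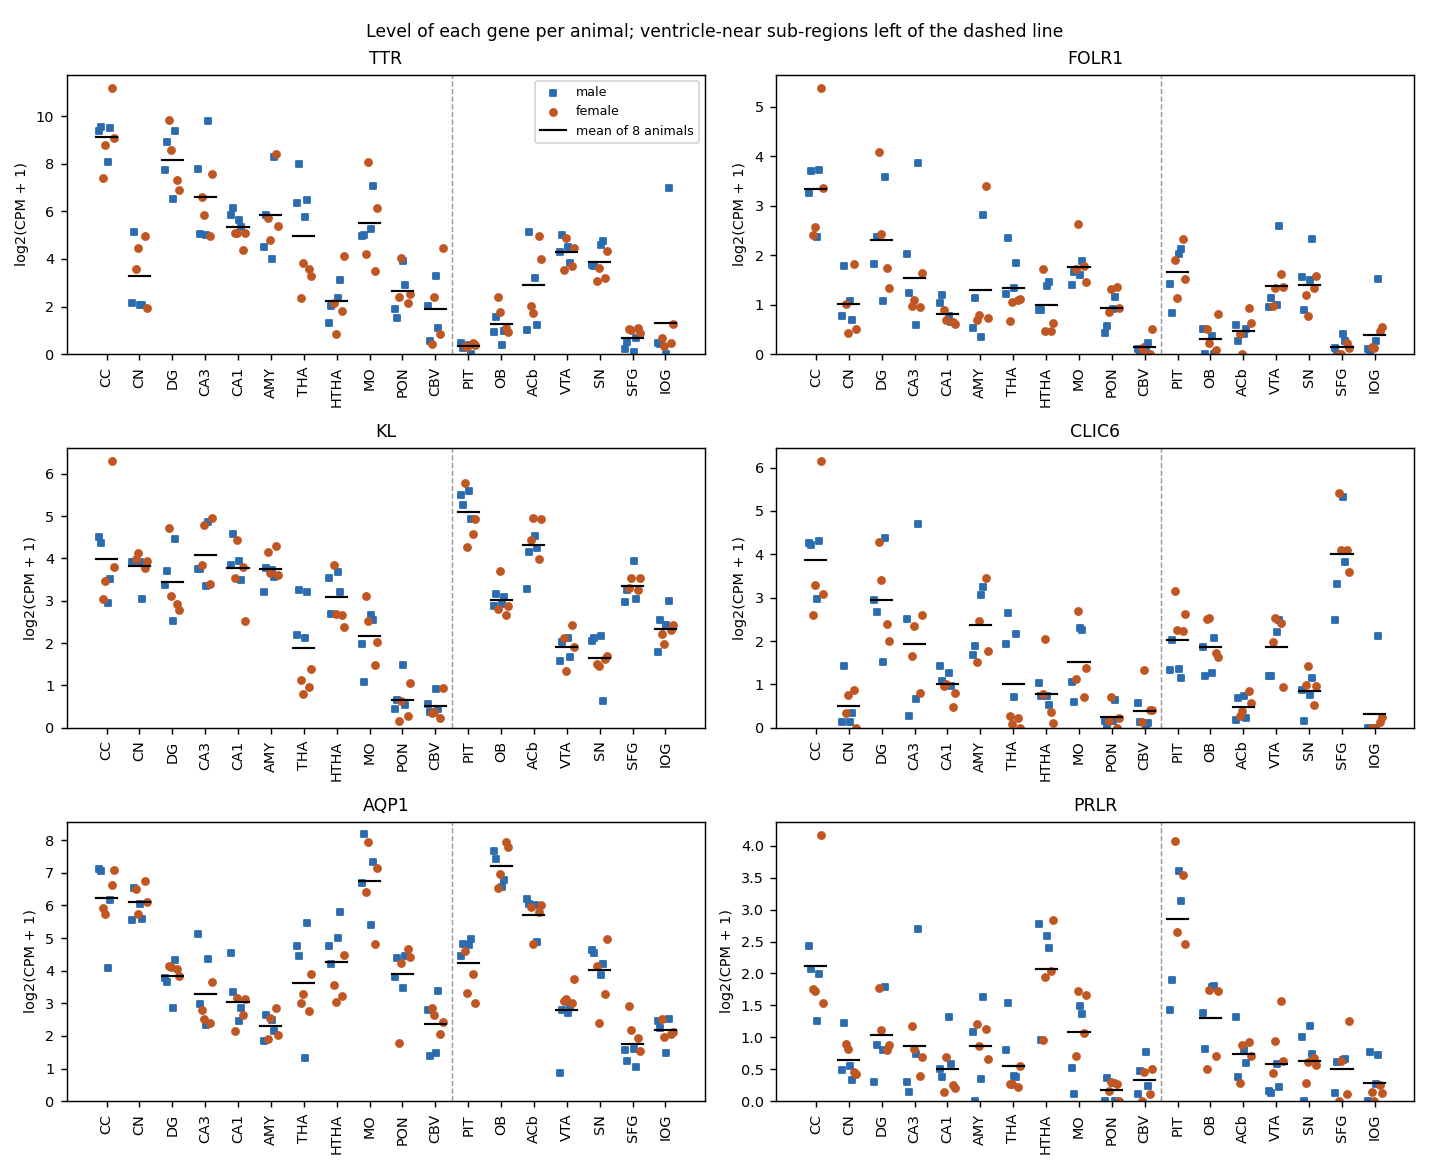
Level of each gene as log2(CPM + 1) in 18 sub-regions, with squares for the 4 males, circles for the 4 females and a line at the mean of 8 animals. Points left of the dashed line are the ventricle-near sub-regions. *TTR* falls from CC and DG towards CN, HTHA, PON and CBV, *KL* and *PRLR* are highest in PIT, *AQP1* in OB, and *CLIC6* is about as high in SFG as in CC.

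To ask which sub-regions carried the genes above the background of the neocortex, each of the 20 non-cortical sub-regions was tested against the summed neocortex of the same animals with edgeR's quasi-likelihood test. A gene was called at a false discovery rate (FDR, Benjamini-Hochberg over 16906 genes) below 0.05 and a fold above 2. Of the 120 pairs of gene and sub-region, 66 were higher, against 11.2% of such pairs over all genes, 21 were lower, against 11.7%, and 33 were not called. At the ventricles 41 of 66 pairs were higher (10.2% over all genes), and in the other non-cortical sub-regions 25 of 54 (12.4% over all genes). The difference between these shares was not tested. All 6 genes differed across the 21 groups, as did 99.6% of genes tested.

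*TTR* was higher in all 11 ventricle-near sub-regions and in 5 of the 9 others. In CC the log2 fold change (log2FC) was 9.21 (SE 0.81, FDR 4.3237e-21), in DG 8.32 (SE 0.78), in CA3 7.07 (SE 0.74), in AMY 6.25 (SE 0.72), in MO 5.76 (SE 0.71), in THA 5.64 (SE 0.70) and in CA1 5.20 (SE 0.69), each with all 8 animals above their own neocortex. The differences were smaller in CN (3.47, SE 0.66), PON (2.51, SE 0.68), CBV (2.11, SE 0.68) and HTHA (1.98, SE 0.67). In CBV only 5 of 8 animals lay above their neocortex, and the calls in CBV and HTHA rested on Rhesus 11, without which the log2FC was 1.27 (FDR 0.148) and 1.41 (FDR 0.101). In PIT, *TTR* had a log2FC of -2.22 (SE 1.2), which did not pass the threshold (FDR 0.0826). The call in GP (1.58, SE 0.70, FDR 0.0364) was lost without the filter on low counts, without the animal block, and without Rhesus 3, 4, 7 or 11.

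*FOLR1* was higher in 15 of 20 sub-regions and lower in none. Its largest log2FC was in CC (5.66, SE 0.44), followed by DG (4.59, SE 0.43), GP (3.62, SE 0.42), MO (3.57, SE 0.43), CA3 (3.53, SE 0.43), PIT (3.38, SE 0.42) and AMY (3.15, SE 0.43). CBV, with 0.108 CPM and at most 5 counts in a library, was the only ventricle-near sub-region where it was not called. As most neocortical libraries had few counts, these folds rest on the sum of 31 libraries per animal.

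*AQP1* was higher in 17 sub-regions and *PRLR* in 13. The log2FC of *AQP1* was largest in OB (5.81, SE 0.44), MO (5.51, SE 0.44), CC (4.88, SE 0.42), CN (4.72, SE 0.42) and ACb (4.33, SE 0.41), and it was not called in AMY, CBV or PA. That of *PRLR* was largest in PIT (5.16, SE 0.46), CC (4.48, SE 0.46) and HTHA (4.13, SE 0.45). *PRLR* was called lower in PUT, where a single count was found. The calls of *PRLR* in THA, SN and VTA were lost when 1 animal was left out: in THA without Rhesus 2 or Rhesus 3, in SN without Rhesus 2 and in VTA without Rhesus 10.

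*KL* and *CLIC6* were more often lower than higher, with the neocortex as the reference carrying both. *KL* was higher in PIT (log2FC 2.06, SE 0.31), CC (1.34, SE 0.31), ACb (1.28, SE 0.31) and CA3 (1.11, SE 0.31), and lower in 8 sub-regions, down to -4.16 (SE 0.44) in CBV. *CLIC6* was higher in CC alone (1.80, SE 0.47) and lower in 12, down to -5.70 (SE 0.80) in PUT. Both calls in CC rested on Rhesus 10. Without this animal, *CLIC6* had a log2FC of 0.99 (FDR 0.0521) and *KL* of 0.60 (FDR 0.0656) in CC. The call of *KL* in CA3 was lost without Rhesus 6, 8 or 11, and that of lower *KL* in MO without Rhesus 10.

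**Figure D2:**
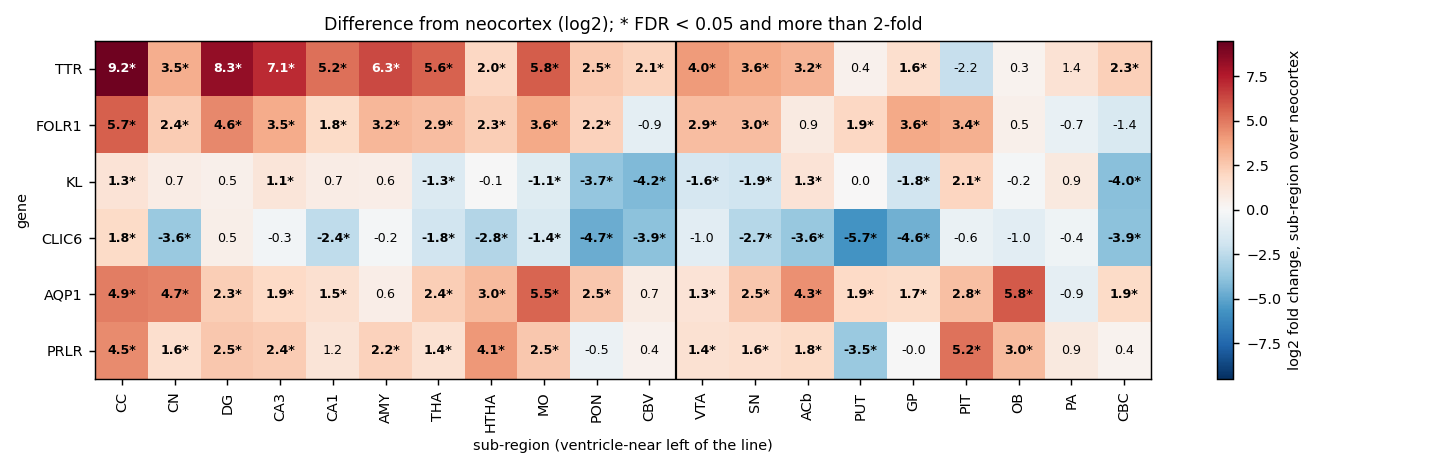
Log2 fold change of each gene in each of the 20 non-cortical sub-regions over the neocortex of the same 8 animals, from edgeR's quasi-likelihood test, with an asterisk at FDR < 0.05 and a fold above 2. The 11 ventricle-near sub-regions are left of the line. CC is the only column in which all 6 genes are called higher, and *CLIC6* is below 0 in all others but DG.

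By sub-region, CC was the only one in which all 6 genes were higher, where 20% of all genes were called higher and 24.3% lower. In CA3, 5 were higher, all but *CLIC6* (6.2% of all genes higher). In DG (6.68%), *TTR*, *FOLR1*, *AQP1* and *PRLR* were higher. No gene was lower in CA3 (6.29% of all genes lower), DG (8.28%) or AMY (4.5%). The same 4 genes were higher in MO (15.4%), THA (9.79%), HTHA (10.9%) and CN (9.62%). In MO (13% of all genes lower) and THA (10%) *KL* and *CLIC6* were lower, and in HTHA (7.67%) and CN (8.43%) *CLIC6* was lower. AMY (5.23%) had *TTR*, *FOLR1* and *PRLR* higher, CA1 (6.22%) and PON (11.5%) had *TTR*, *FOLR1* and *AQP1*, and CBV (11.1%) had *TTR* alone. *CLIC6* was lower in CA1 (5.6% lower), and it was lower together with *KL* in PON (13.5%) and CBV (15.9%).

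Away from the ventricles, PIT (21.3% of all genes higher) had every gene but *TTR* and *CLIC6* higher, and OB (12.5%) had *AQP1* and *PRLR*, with no gene lower in either (23.4% and 10% of all genes lower). SN (14.1% higher) and VTA (14.2%) had the same 4 genes higher as DG, with *KL* lower in both (13.8% and 14% lower) and *CLIC6* lower in SN. ACb had *TTR*, *KL*, *AQP1* and *PRLR* higher (8.78%) and *CLIC6* lower (8.03%). GP had *TTR*, *FOLR1* and *AQP1* higher (16.6%) and CBC *TTR* and *AQP1* (10.3%), with *KL* and *CLIC6* lower in both (18.2% and 14.5%). PUT had *FOLR1* and *AQP1* higher (8.45%) and *CLIC6* and *PRLR* lower (10.5%). In PA 0 of the 6 genes were called by edgeR or DESeq2 (5.48% of all genes higher and 3.45% lower). The 1 gene there at an unadjusted p below 0.05 was *KL*, which was higher in 8 of 8 animals and passed the FDR (0.0117) but not the fold (log2FC 0.94, SE 0.31).

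The labels of the sub-regions were checked against marker lists. In CC 5 of 5 oligodendrocyte genes were higher (20% of all genes) and 5 of 5 neuron genes lower (24.3%) than in the neocortex. In PIT 5 of 5 anterior pituitary genes were higher (21.3% of all genes), including *PRL*, which encodes prolactin, the ligand of *PRLR*. A pair of libraries of Rhesus 6 stood apart. The HTHA library held 472 CPM of *SLC17A7*, a gene of cortical excitatory neurons, against at most 5.11 CPM in the other animals. The MO library held 166 CPM of *DCN* and 60.8 CPM of *COL1A2*, genes of fibroblasts and meninges, against 31.2 to 53.2 CPM and 2.23 to 7.48 CPM in the other animals, and 2.81 CPM of *SLC17A7* against 50.6 CPM or more. That MO library also had the highest *TTR*, *FOLR1*, *CLIC6* and *PRLR* of its sub-region, and the HTHA library had the highest *CLIC6* (3.16 CPM) and the lowest *TTR* (0.789 CPM). The part of these markers in the values was not tested. Without Rhesus 6, the log2FC of *TTR* was 5.02 in MO (FDR 6.0414e-10) and 2.05 in HTHA (FDR 0.00907), both still called.

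Adjacent structures were then compared within animals. DG exceeded CA1 for *TTR* (log2FC 3.12, SE 0.63, FDR 5.9706e-05), *CLIC6* (2.95, SE 0.56) and *FOLR1* (2.74, SE 0.47), each in 8 of 8 animals, while 1.16% of all genes were higher in DG and 2.88% lower. Between DG and CA3 0 of the 6 genes were called by edgeR or DESeq2, with 3 at an unadjusted p below 0.05 in edgeR and a smallest FDR of 0.0527, for *FOLR1* (0.881% of all genes higher in DG and 2.51% lower). Between CA1 and CA3 0 were called by either tool, with 4 at an unadjusted p below 0.05 (0.0414% of all genes higher in CA1 and 0.0355% lower). CN exceeded PUT, which lies away from the ventricle, for *TTR* (3.08, SE 0.80) and *AQP1* (2.82, SE 0.41), where 3.83% of all genes were higher in CN and 1.68% lower. *PRLR* was also called there, with 51 counts over 8 CN libraries and 1 over 8 PUT libraries (ratio of CPM-scaled counts 44.05, 95% exact interval 7.56 to 1774 from counting error only).

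MO exceeded PON, at the same ventricle, for all 6 genes, where 7.81% of all genes were higher in MO and 3.6% lower. The log2FC was 3.27 for *CLIC6* (SE 0.76), 3.25 for *TTR* (SE 0.67), 3.08 for *PRLR* (SE 0.70), 2.99 for *AQP1* (SE 0.40), 2.55 for *KL* (SE 0.46) and 1.41 for *FOLR1* (SE 0.47). A PON library had at most 8 counts of *CLIC6* and 3 of *PRLR*, so the size of these 2 folds is uncertain. THA exceeded HTHA for *TTR* (3.65, SE 0.69, FDR 2.8807e-06, 4.99% of all genes higher), while *PRLR* (-2.72, SE 0.51) and *KL* (-1.2, SE 0.35) were lower in THA, as were 9.21% of all genes. The *KL* call was lost without Rhesus 4. Between CBV and CBC 0 of the 6 genes were called by edgeR or DESeq2, with 1 at an unadjusted p below 0.05 (0.0769% of all genes higher in CBV and 0.136% lower). Of 42 comparisons between adjacent structures, 15 were called in all.

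Within the neocortex, *TTR* (FDR 7.0478e-17), *KL* (FDR 1.7825e-47), *CLIC6* (FDR 5.4125e-66) and *AQP1* (FDR 2.2671e-07) differed among the 31 sub-regions by edgeR's quasi-likelihood test, as did 75% of the genes tested. *FOLR1* and *PRLR* were removed there by the filter on low counts. For *CLIC6* the means spanned the range from SFG to aSOG given above, and for *KL* that from HG to pSOG. *AQP1* varied little in size, from 4.91 CPM in vmPFC to 1.90 CPM in the anterior/posterior marginal gyrus. The call of *TTR* did not rest on the high libraries of Rhesus 8: without its IOG and pSOG libraries, a setting added after the data were seen, the FDR was 4.4156e-17.

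*TTR* varied between animals more than most genes in all 11 ventricle-near sub-regions. The SD of log2(CPM + 1) of *TTR* over the 8 animals was 1.12 in CC, 1.2 in DG, 1.72 in CA3, 1.64 in AMY, 1.96 in THA and 1.5 in MO, while the median over all genes in these sub-regions lay between 0.248 and 0.357. It exceeded that of 98.8% of all genes in HTHA, 91.4% in CA1 and 99.3% to 99.9% in the other 9 ventricle-near sub-regions. In CC all 6 genes had a large SD, the smallest being that of *PRLR*, above 98.9% of all genes. Elsewhere the other 5 genes did not always stand out. The SD of *FOLR1* exceeded that of 26.5% of genes in CBV, 32.5% in CA1 and 55.7% in MO, that of *PRLR* 15.2% in PON and that of *CLIC6* 52.4% in PON, against 99.5% for *FOLR1*, 98.4% for *PRLR* and 99.8% for *CLIC6* in CA3. Except for *FOLR1* in MO, these low values came with low counts. The most in a library was 5 (*FOLR1* in CBV), 13 (*FOLR1* in CA1), 3 (*PRLR* in PON) and 8 (*CLIC6* in PON). At such levels the added 1 holds the SD of log2(CPM + 1) down, so a small SD there does not show a small spread. In PIT the SD of *TTR* (0.154) exceeded that of 11.8% of genes, with at most 6 counts in a library, and *PRLR* had the largest of the 6 (0.903, 96.7%).

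No animal was high throughout. Among the 11 ventricle-near sub-regions, *TTR* was highest in Rhesus 3 in 3 of them, in Rhesus 6, 10 and 11 in 2 each and in Rhesus 4 and 8 in 1 each. Rhesus 10, highest in CC and AMY, was lowest in CA3, MO and CA1. The ranking of the animals by *TTR* thus changed from 1 piece of tissue to the next.

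**Figure D3:**
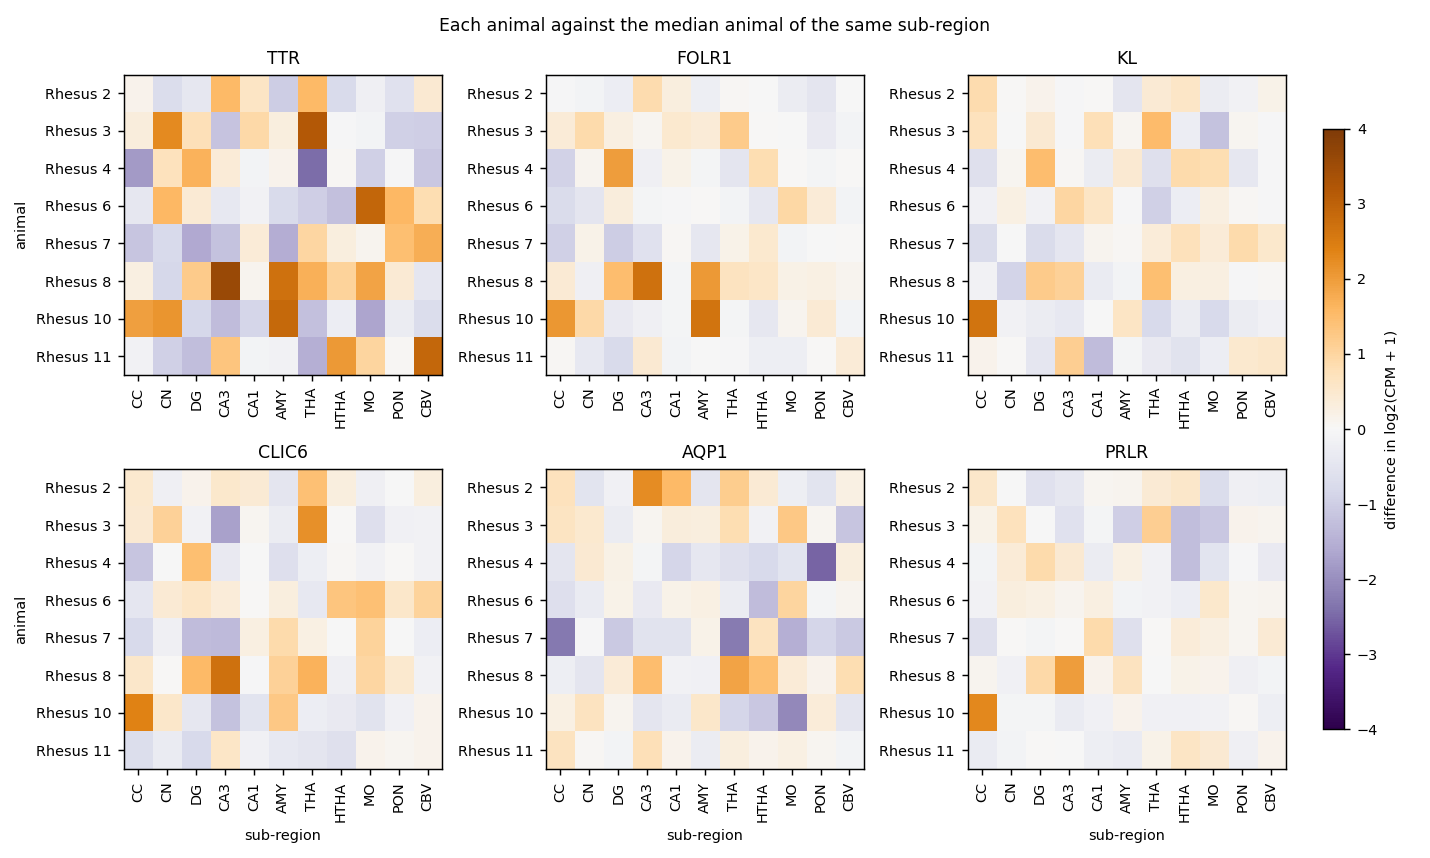
Difference in log2(CPM + 1) between each animal and the median animal of the same sub-region, for each gene in the 11 ventricle-near sub-regions. High cells of *TTR* move from animal to animal between sub-regions, and many recur in the same cell of *FOLR1* and *CLIC6*, such as Rhesus 10 in CC and Rhesus 8 in CA3.

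Within a sub-region, the other genes were compared with *TTR* over the 8 animals on the log2(CPM + 1) scale, 55 relations in all, with exact two-sided permutation p-values adjusted over the 55. Pearson's r was above 0 in 51 and below 0 in 4, and 16 had an adjusted p below 0.05, all with r above 0. Of these 16, 12 also had one for Spearman's rho, and 4 were in THA and AMY, where the animals fell into separate sets. How often other genes pass against *TTR* in the same libraries is not given here. The counts therefore do not show that the relations are particular to these genes. In CC, *FOLR1* had Pearson's r 0.95 (exact p = 0.00019841, adjusted 0.00432) and Spearman's rho 0.93 (exact p = 0.0022321, adjusted 0.0409), and r was 0.93 without the 2 animals farthest from the median of *TTR*. *CLIC6* had r 0.95 (exact p = 0.00027282, adjusted 0.00432), rho 0.90 (exact p = 0.0045635, adjusted 0.0418) and r 0.84 without these animals. *KL* had r 0.91 (exact p = 0.0012649, adjusted 0.00696), rho 0.86 (exact p = 0.010714, adjusted 0.0491) and r 0.79 without them. The animals with more *TTR* in CC were thus those with more of these 3 genes. *PRLR* had r 0.83 (exact p = 0.01307, adjusted 0.0449), rho 0.76 (exact p = 0.036756, adjusted 0.106) and r 0.82 without them. *AQP1* did not pass, with r 0.53 (exact p = 0.18624, adjusted 0.261) and rho 0.55 (exact p = 0.17098, adjusted 0.269), and r was 0.88 without the 2 farthest animals.

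In DG, *FOLR1* had r 0.96 (exact p = 4.9603e-05, adjusted 0.00273), rho 0.98 (exact p = 0.00039683, adjusted 0.0109) and r 0.93 without the 2 farthest animals. *KL* had r 0.93 (exact p = 0.00071925, adjusted 0.00565), rho 0.98 (exact p = 0.00039683, adjusted 0.0109) and r 0.86 without them. *CLIC6* had r 0.92 (exact p = 0.0019345, adjusted 0.00967), rho 0.90 (exact p = 0.0045635, adjusted 0.0418) and r 0.83 without them. *FOLR1*, *KL* and *CLIC6* thus passed by both measures in CC and in DG, where different animals were highest.

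In CA3, *CLIC6* had r 0.95 (exact p = 0.0011905, adjusted 0.00696), rho 0.86 (exact p = 0.010714, adjusted 0.0491) and r 0.84 without the 2 farthest animals. *FOLR1* had r 0.91 (exact p = 0.0024058, adjusted 0.0110), rho 0.88 (exact p = 0.0072421, adjusted 0.0443) and r 0.68 without them. *AQP1* had r 0.81 (exact p = 0.012426, adjusted 0.0449), rho 0.88 (exact p = 0.0072421, adjusted 0.0443) and r 0.79 without them. CA3 was the only sub-region in which *AQP1* passed. In CN, *CLIC6* had r 0.91 (exact p = 0.00047123, adjusted 0.00432), rho 0.86 (exact p = 0.010714, adjusted 0.0491) and r 0.88 without them. This relation rests on 0 to 15 *CLIC6* counts in a library. In CBV, *KL* had r 0.88 (exact p = 0.006622, adjusted 0.0260) and rho 0.76 (exact p = 0.036756, adjusted 0.106), but r was 0.46 without the 2 farthest animals, so the relation rested on these. *KL* counts were low there too, at 2 to 11 in a library. The relation ran the other way for *CLIC6* in HTHA, without passing (r -0.79, exact p = 0.022768, adjusted 0.0596, rho -0.74, exact p = 0.045833, adjusted 0.126), and r was -0.49 without the 2 farthest animals. *FOLR1* in MO had r 0.63 (exact p = 0.091815, adjusted 0.159) and rho 0.31 (exact p = 0.46181, adjusted 0.540), and r was -0.76 without the 2 farthest animals.

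In AMY, the animals fell into 2 sets, Rhesus 8 and 10 with 307 and 338 CPM of *TTR* and the other 6 with 14.9 to 57.1 CPM. Rhesus 8 and 10 also had the most *FOLR1* (6.03 and 9.51 CPM, against at most 1.21) and the most *CLIC6* (8.46 and 9.87 CPM, against at most 7.36). Among the other 6 animals r with *TTR* was 0.82 for *FOLR1* and -0.73 for *CLIC6*. The *FOLR1* value rests on 3 to 10 counts in a library. In THA the 4 males and 4 females fell into separate sets for *TTR*, each with too few animals for an r of its own, and no r over all 8 is given. *FOLR1* had its highest level in the same animal as *TTR* in 8 of 11 sub-regions, *CLIC6* in 7, *KL* and *PRLR* in 6 each and *AQP1* in 1. The share over all genes is not given here.

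Counts per 1000 counts of *TTR* were also taken animal by animal. For *FOLR1* this ratio lay between 11.0 and 25.7 (median 16.5) in CC, between 8.63 and 17.7 (median 12.5) in DG, between 12.05 and 28.1 (median 19.7) in AMY and between 14.5 and 29.3 (median 18.6) in CA1. For *CLIC6* it lay between 13.6 and 30.5 in CC, 11.1 and 31.8 in DG and 15.7 and 30.96 in CA1, but between 27.6 and 494 in AMY. In CC and DG these ratios varied less between animals than *TTR* itself, and in CA1, where *TTR* had its smallest range, the ratios had a small range too. In CA3 they varied more, from 9.99 to 42.5 for *FOLR1* and from 6.54 to 71.9 for *CLIC6*. Some ratios rest on few counts, down to 2 for *CLIC6* and 6 for *FOLR1* in CA3. In CA1 the lowest counts were 4 and 6, and in AMY that of *FOLR1* was 3. Counting error is thus part of these ranges. *FOLR1* reached 240 per 1000 in MO and 146 in THA. The ratio of *AQP1* ranged from 42.05 to 359 in CC and from 906 to 9317 in MO.

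**Figure D4:**
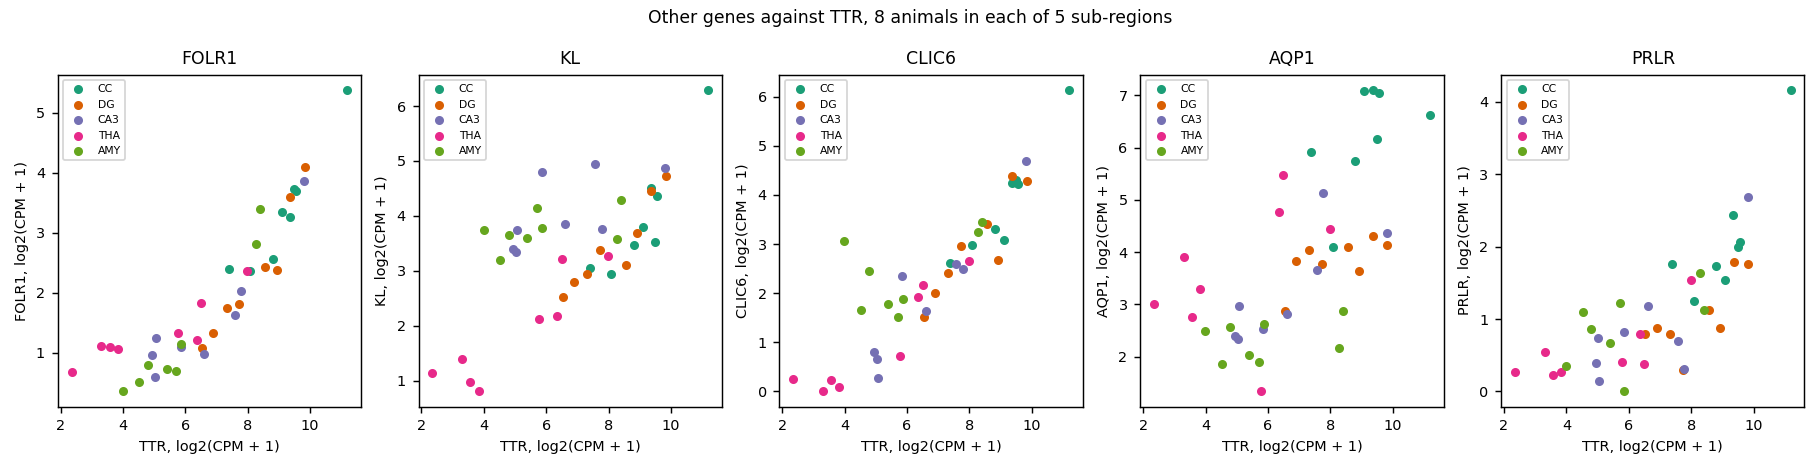
Each gene against *TTR*, both as log2(CPM + 1), with 1 point per animal in CC, DG, CA3, THA and AMY. *FOLR1* is higher where *TTR* is higher in CC, DG and CA3 (r 0.95, 0.96 and 0.91), while *AQP1* in CC has r 0.53.

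Age stage and sex were tested in each ventricle-near sub-region over 4 against 4 animals, with the other as a covariate (edgeR, FDR below 0.1 and an absolute log2FC above 1). A gene that failed the filter on low counts in a sub-region was not tested, which left 48 of the 66 pairs. For age, 0 of 48 pairs were called, with 7 at an unadjusted p below 0.05, a smallest FDR of 0.364 and 0 calls by DESeq2, against 0.00375% of pairs over all genes. The 4 mid-aged animals lay above the 4 young ones without overlap for *AQP1* in CA1 (log2FC 1.21, FDR 0.999), where 1.12% of genes did so.

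For sex, 1 of 48 pairs was called, *TTR* in THA, against 0.111% of pairs over all genes and 0.123% of genes in THA. The males had 81.2 (Rhesus 2), 252 (Rhesus 3), 53.6 (Rhesus 7) and 89.4 CPM (Rhesus 8), and the females had 4.10 (Rhesus 4), 13.2 (Rhesus 6), 10.9 (Rhesus 10) and 8.85 CPM (Rhesus 11). Each male lay above each female, as for 0.805% of genes in THA. The log2FC of females over males was -3.59 (SE 0.43, FDR 0.00650). Leaving out single animals gave values between -3.10 and -3.98, with FDR from 0.00408 (without Rhesus 7) to 0.0516 (without Rhesus 11), so the call held each time.

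*FOLR1* in THA had 1.31, 4.13, 1.52 and 2.57 CPM in the males (Rhesus 2, 3, 7 and 8) and 0.6, 1.08, 1.13 and 1.15 CPM in the females (Rhesus 4, 6, 10 and 11), a log2FC of -1.24 (SE 0.43, FDR 0.999). *KL* had 3.53, 8.58, 3.37 and 8.25 CPM in the males and 1.2, 0.742, 0.957 and 1.62 CPM in the females, a log2FC of -2.39 (SE 0.43, FDR 0.165). For both genes each male lay above each female, as for 0.805% of genes in THA. Neither was called by edgeR with age stage as a covariate. *KL* was called by DESeq2 (log2FC -2.40, FDR 0.000108) and by edgeR with no covariate (FDR 0.0935) or without Rhesus 7 (FDR 0.0549). Leaving out any other animal gave *KL* an FDR from 0.135 to 0.861. *CLIC6* and *PRLR* did not pass the filter on low counts in THA. *CLIC6* had 2.79, 5.30, 0.641 and 3.48 CPM in the males and 0.200, 0.0675, 0.174 and 0 CPM in the females. Without the filter its log2FC was -4.71 (SE 0.80, FDR 0.102), which was not called. With the filter it was tested only when Rhesus 4, 6, 7, 10 or 11 was left out. It was called without Rhesus 7 (log2FC -5.12, FDR 0.00744) and not without the others (FDR 0.285 to 0.635). *AQP1* overlapped, with 1.52 to 43.4 CPM in males and 5.74 to 14.01 CPM in females (log2FC -1.42, SE 0.68, FDR 0.999), as did *PRLR*, with 0.303 to 1.91 CPM in males and 0.174 to 0.462 CPM in females.

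Of 18 other choroid plexus genes tested by sex in THA, 0 were called by edgeR (0.123% of all genes there). Of these, 3 had an unadjusted p below 0.05 (*ENPP2*, *HTR2C* and *SLC13A4*), and the smallest FDR was 0.351. The median log2FC of females over males among the 18 was -0.05. *HTR2C* leaned the other way from *TTR*, with 4.16 to 27.75 CPM in the males and 13.83 to 53.5 CPM in the females. *ENPP2* had 338.3 to 442.6 CPM in the males and 272 to 363.4 CPM in the females. *SLC13A4*, a sulfate transporter, had 6.49, 11.9, 2.73 and 6.66 CPM in the males and 1.90, 1.75, 1.57 and 2.62 CPM in the females. It did not overlap, with the males higher, as for 0.805% of genes there. The sum of 8 ependymal markers in THA lay between 169 and 320 CPM in the males and between 152 and 240.5 CPM in the females. That of 8 meningeal and fibroblast markers lay between 154 and 200.5 CPM in the males and between 167 and 235 CPM in the females. No marker of either list was at 0 in all animals. Neither list separated the sexes, and their part in the *TTR* difference was not tested. In the other 10 sub-regions 0 of the 6 genes were called by sex by edgeR or DESeq2, with 3 pairs at an unadjusted p below 0.05. In CA1 each male had more *TTR* than each female (log2FC -0.81, FDR 0.859), as for 1.33% of genes there. Whether the effect of sex differed between THA and other sub-regions was not tested.

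**Figure D5:**
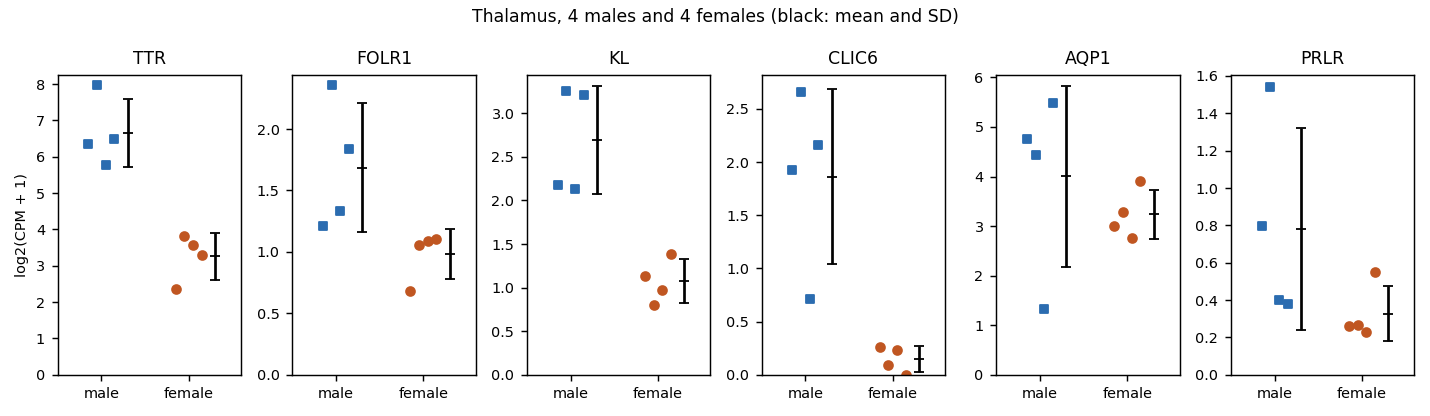
Level of each gene in the thalamus as log2(CPM + 1), with a square for each of 4 males, a circle for each of 4 females and bars for mean and SD. Males and females are apart for *TTR*, *FOLR1*, *KL* and *CLIC6*, of which *TTR* was called by edgeR with age stage as a covariate, *KL* by DESeq2, with no covariate or without Rhesus 7, and *CLIC6* had too few counts for that test, and they overlap for *AQP1* and *PRLR*.

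A further 25 choroid plexus genes in 5 lists (transport, secretion, receptors and retinoid handling, transcription factors, junctions) were read beside the 6, and 22 of them were found in the table. In CC 13 of 22 were higher (20% of all genes) and 3 lower (24.3%) than in the neocortex, with a median log2FC of 1.79 against -0.02 over all genes. In DG 10 were higher (6.68%) and 2 lower (8.28%), with a median of 0.91 against 0.01. In CA3 11 were higher (6.2% of all genes), in MO 11 (15.4%), in HTHA 10 (10.9%), in THA 8 (9.79%), in AMY 7 (5.23%), in CA1 5 (6.22%) and in CN 3 (9.62%). The lower ones numbered 3 in CA3 (6.29% of all genes), 2 in MO (13%), 2 in HTHA (7.67%), 3 in THA (10%), 2 in AMY (4.5%), 3 in CA1 (5.6%) and 4 in CN (8.43%). PIT, which held little *TTR*, had 12 higher (21.3%) and 3 lower (23.4%), and OB had 12 higher (12.5%) and 2 lower (10%). As these shares of all genes differ between sub-regions, the counts were not ranked.

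In CC, *OTX2*, a transcription factor of the choroid plexus epithelium, had a log2FC of 8.13 (SE 0.58), *LMX1A*, another transcription factor, 6.83 (SE 0.62), and the claudin *CLDN2* 6.61 (SE 0.44). In DG the log2FC was 6.85 (SE 0.58) for *OTX2* and 4.36 (SE 0.53) for *CLDN2*. Some of these large folds rest on low levels. *LMX1A* lay between 0 (Rhesus 4) and 2.57 CPM (Rhesus 10) in CC, and *CLDN2* between 0 (Rhesus 3) and 1.12 CPM (Rhesus 8) in DG. *SLC13A4* had 4.07 (SE 0.53) in CC and 2.96 (SE 0.51) in DG. In Rhesus 10, whose *TTR* was highest in CC, *OTX2* (21.6 CPM), *CLDN2* (7.85 CPM) and *SLC13A4* (105 CPM) were highest too, and in Rhesus 4, the lowest, they had 1.89, 0.299 and 9.16 CPM. *OTX2* was far higher in THA (log2FC 11.52, SE 0.63), with 47.2 CPM or more in every animal of both sexes, while *LMX1A* had no count in THA.

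Other genes of the lists moved apart from *TTR*. *ENPP2*, which encodes the secreted enzyme autotaxin, had 1787 to 2360 CPM in CC, with a log2FC of 4.76 (SE 0.21), and -0.14 (SE 0.18) in DG, where it was not called. *IGFBP2*, a binding protein of insulin-like growth factors, was lower in CC (-1.68, SE 0.36) and DG (-1.32, SE 0.36). *SLC29A4*, a monoamine transporter, was higher in DG (1.89, SE 0.19) and lower in CC (-2.74, SE 0.22). Between DG and CA1, 7 of the 22 were higher in DG (1.16% of all genes) and 0 lower (2.88%). Among the higher ones were *CLDN1*, *CLDN2*, *F5* (coagulation factor V), *OTX2*, *SLC13A4* and *SLC29A4*.

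Of 13610 genes with at least 1 CPM in a sub-region, those whose log2(CPM + 1) followed the mean of the 6 genes most closely over all libraries were *GSTA5* (r 0.80), *CFAP54* (0.74), *CIMAP1B* (0.74), *ARMC3* (0.73), *FAM81B* (0.73), *CLDN2* (0.72), *CFAP161* (0.71), *SPATA13* (0.70), *C3H7orf57* (0.70) and *HYDIN* (0.70). After removal of the sub-region and animal means, among the closest were *GSTA5* (0.61), *CLDN2* (0.59), *CP* (0.50), *F5* (0.48), *SLC13A4* (0.46), *TEX26* (0.45), *MFRP* (0.42), *SCNN1A* (0.41) and *SLC28A3* (0.40). The libraries share animals and sub-regions, and these values are a description. *CLDN2*, *F5* and *SLC13A4* were on the choroid plexus lists, and the ceruloplasmin gene *CP* was not. Between the 6 genes themselves, r over all libraries was 0.75 for *TTR* and *FOLR1*, 0.54 for *TTR* and *AQP1* and 0.50 for *KL* and *CLIC6*, but 0.08 for *TTR* and *KL* and 0.10 for *TTR* and *CLIC6*. Over the deviations from sub-region and animal means the latter were 0.38 and 0.43, and that of *TTR* and *FOLR1* was 0.48.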

How the data were processed

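The authors sequenced ribosome-depleted, strand-marked libraries, mapped reads with HISAT2 2.0.5 and counted them on genes with HTSeq 0.6.1, and deposited raw counts per gene (30807 genes, 408 libraries). The counting's strand and overlap options are not given in the sources used here, so counts of overlapping genes are uncertain. Symbols came from a reference table (17572 genes) or the study's supplement (496, among them *TTR* and *AQP1*). The members and lists were chosen with earlier results of these data known. Named genes were the 6 members, up to 4 most abundant genes of each list and the 10 genes most like the members by Pearson's r, of which 1 is not reported here.

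Tests used edgeR 4.0.16 in R 4.3.3 (TMM, filterByExpr, quasi-likelihood F test, Benjamini-Hochberg FDR over all genes tested), on 168 libraries for sub-regions, with the 31 neocortical counts of each animal summed, on 248 libraries within the neocortex, and on 8 libraries for age stage and sex. Sub-region tests had the animal as a block. Libraries of the same animal deviated together (mean correlation 0.356 against -0.0488 for different animals, above 0.1 in 190 of 190 pairs of sub-regions). Alternatives were DESeq2 1.42.0, its size factors, no filter, no block or covariate, a larger fold and each animal left out. The tests were tested on simulated data. Midbrain libraries and open chromatin data were not analysed here.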

Additional observations from a re-analysis of the deposited data

Results flagged for a closer look

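In 66 groups of 8 animals, 1 for each gene and ventricle-near sub-region, the animal at an end of the range was compared with the rest by Dixon's criterion. The criterion was taken on log2(CPM + 1). Chance alone meets it in about 1 in 20 groups of independent, normally spread values. The groups here share libraries, and some have few counts, such as *FOLR1* in CBV with at most 5, so that rate need not hold. The share over all genes is not given here. The 15 groups below met the criterion, and their levels are printed as CPM. In CC, Rhesus 10 stood above the other animals for *FOLR1* (40.85 CPM, next 12.32), *KL* (77.77, next 21.77) and *PRLR* (16.98, next 4.399), and Rhesus 7 below them for *AQP1* (16.1 CPM, next 52.67). In CA3, Rhesus 8 stood above for *FOLR1* (13.6 CPM, next 3.096) and *PRLR* (5.462, next 1.259). Rhesus 10 had the most *TTR* in CC and Rhesus 8 in CA3.

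In MO, Rhesus 6 was above for *FOLR1* (5.198 CPM, next 2.712), in HTHA for *CLIC6* (3.156, next 1.035) and in CBV for *CLIC6* (1.515, next 0.4739). The HTHA and MO libraries of this animal are those with high *SLC17A7* and high *DCN*, and the part of these markers in the values was not tested. Rhesus 11 was above for *FOLR1* in CBV (0.4178 CPM, next 0.1753), where it also had the most *TTR*. *PRLR* was above in Rhesus 3 in THA (1.907 CPM, next 0.7388) and in Rhesus 7 in CA1 (1.493, next 0.6155). The animal lay below the rest for *KL* in CN (Rhesus 8, 7.193 CPM, next 12.72), for *AQP1* in PON (Rhesus 4, 2.45, next 10.11) and for *AQP1* in DG (Rhesus 7, 6.289, next 11.47).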

How the results depend on the processing

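Of the 102 called comparisons of a gene between sub-regions, 91 kept their call and direction under all 12 alternatives (DESeq2, its size factors in edgeR, no filter, no block and each animal left out), and 0 reversed. The 11 that lost it did so when 1 animal was left out, save *TTR* in GP, which was also lost without the filter and without the animal block. Without the block, 65 pairs were higher than in the neocortex in place of 66, and the 15 calls between adjacent structures, 6 across groups and 4 within the neocortex were unchanged in number. With DESeq2 there were 66 and 16, the added call being *CLIC6* in CN over PUT, and leaving out animals gave 63 to 66 and 14 to 18. A fold above 4 left 47 of the 66. The share over all genes at that fold is not given here, and the 11.2% given for the 66 is for a fold above 2. Without the filter all 6 genes differed within the neocortex, *FOLR1* with FDR 0.0216 and *PRLR* with 5.1303e-09. By sex, 2 pairs in place of 1 were called with no covariate and with DESeq2, the second being *KL* in THA (log2FC -2.39 and -2.40), and 1 to 3 with an animal left out. The 3 were found without Rhesus 7 and added *KL* (-2.59) and *CLIC6* (-5.12) in THA. The low counts of *PRLR* and *FOLR1* outside a few sub-regions limit what can be read from them. Intervals and floors cover counting error only.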
